A study of Mus musculus with 12 samples.

Results

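The spinal cord transcriptome of adult control mice was described from 4 control animals, as the levels of 15329 genes whose mean over the 4 libraries reached 1 TPM (a level per length of transcript, relative to the library), out of 36121 genes in the table. Genes are counted as rows, and 164 of the 15329 repeat the symbol of an annotated gene under an identifier that the annotation lacks. All 4 controls were 3-month-old C57BL6 mice with the genotype Tardbp-fl/fl: both Tardbp alleles carried loxP sites and the labels list no Cre, so the floxed allele is the state of every control. By their labels mice 1 and 2 were male and mice 3 and 4 female, and each library came from a separate animal. The series held 8 further libraries, 4 of Gfap-Cre; Tardbp-fl/+ mice (cHet) and 4 of Gfap-Cre; Tardbp-fl/fl mice (cKO) of the same age and strain. They served only for checks of sex and of spread within a group, and no genotypes were compared. The level of the cord, the time of day and the litter were not stated.

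The spinal cord holds long myelinated tracts around a core of grey matter. Oligodendrocytes wrap the axons in myelin, whose structural proteins include myelin basic protein (Mbp). Astrocytes carry the intermediate filament Gfap and clear glutamate, microglia are the resident macrophages, and endothelial cells sealed by claudin-5 (Cldn5) form the blood vessels. Among the neurons are the cholinergic motor neurons of the ventral horn, the glycinergic and GABAergic interneurons, and the peptide-containing neurons of the dorsal horn. Hox genes, which set the position of cells along the body axis in the embryo, stay on in the adult cord.

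The library labelled as male mouse 1 did not carry the RNA of a Y chromosome at a male level. Ddx3y, a Y-linked RNA helicase, was at 0.288 TPM in mouse 1, 34.3 in mouse 2, 0.601 in mouse 3 and 0.336 in mouse 4. Eif2s3y, a Y-linked translation initiation factor, was at 0.658, 37.7, 0.387 and 0.375 TPM in mice 1 to 4. Mouse 1 thus lay with the libraries labelled female for both genes, and the same held for Kdm5d (0.946 against 10.5 in mouse 2) and Uty (0.600 against 11.1). Eif2s3x, the X-linked partner that escapes X inactivation, was at 108, 67.6, 102 and 117 TPM, with mouse 2 alone low. The transcript Gm26992, which overlaps the Xist locus on chromosome X (103422010 to 103481705, GRCm38, GENCODE M21), was at 133, 0, 173 and 210 TPM. In the other 2 groups all 8 libraries matched their labels: Ddx3y was between 30.5 and 36.5 TPM in the 4 labelled male and between 0.583 and 1.15 in the 4 labelled female. Mouse 1 is therefore called the library labelled male, and results by sex are given with and without it.

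The 4 libraries had similar TPM totals and numbers of genes, although mouse 3 stood apart for several gene lists and mice 2 and 3 for globins. Their values summed to between 954895 and 978621, 15229 to 15384 genes reached 1 TPM in a single library, Pearson's r across genes between any pair was 0.982 to 0.984 on the log2 scale (genes are not independent replicates), and no pair held identical values. Tardbp itself, the floxed gene (chromosome 4, 148612382 to 148627019, minus strand), was at 181, 167, 169 and 166 TPM in mice 1 to 4. TPM keeps no sequencing depth, so the depth is unknown and no counting interval is given.

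The cord's RNA was concentrated in few genes. The 27 most abundant genes held 25% of the summed TPM, 424 held 50%, 2338 held 75% and 5710 held 90%. The median member was at 17.2 TPM, with quartiles of 5.69 and 42.6. There were 1517 members at 100 TPM or more and 79 at 1000 or more. The 20 most abundant genes were the same in every mouse, and 93 genes were among the 100 most abundant in all 4. At the other end, the genes just above the minimum were Gm42804, Zfp184, Folr1, Gm14416 and Apoa1, and those just below it were 1700020N01Rik, AL691519.1, Cdc20, Adgrf4 and 4933430I17Rik, with means within 0.01 TPM of 1. Gm42804 passed on 4 TPM in mouse 2 and was listed at 0 in the other 3, whereas Zfp184 was between 0.885 and 1.11 in all 4. Of the members, 14509 reached 1 TPM in every mouse.

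**Figure D1:**
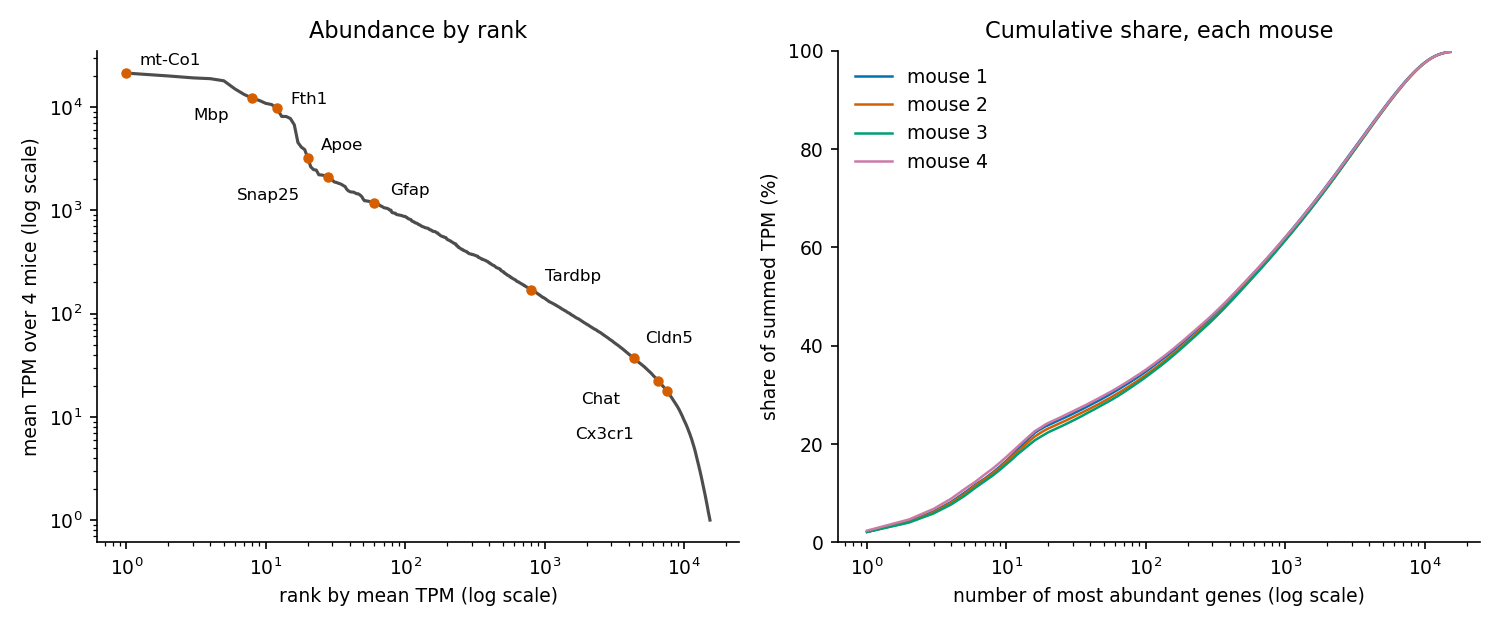
Left, mean TPM over the 4 control mice (log scale) against rank (log scale) for the 15329 genes, with named genes marked. Right, share of summed TPM (%) held by the most abundant genes of each mouse; the 4 curves nearly coincide, and the 100 genes with the highest mean levels held 34.4% ± 0.7 (SD, n = 4).

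The 13 protein genes of the mitochondrial genome, all of them subunits of the respiratory chain or of ATP synthase, held 17.3% ± 1.08 of the summed TPM (SD, n = 4), with 18.1, 16.7, 16 and 18.3% in mice 1 to 4. The highest was mt-Co1, the catalytic subunit of cytochrome oxidase, at 20934, 20486, 20378 and 23486 TPM. It was followed by mt-Nd4l (20007 ± 1711), mt-Atp6 (19168 ± 1049), mt-Nd3 (18826 ± 1626) and mt-Co3 (17953 ± 1084), with mt-Co2 (13233 ± 2560), mt-Cytb (11569 ± 432), mt-Nd1 (10581 ± 669), mt-Nd4 (8111 ± 412), mt-Atp8 (8100 ± 2175), mt-Nd2 (7742 ± 586), mt-Nd6 (6740 ± 580) and mt-Nd5 (3874 ± 386) below. Mouse 4 was highest for mt-Co1 and mt-Nd3. Short mt-Atp8, which overlaps mt-Atp6 on the mitochondrial genome, stood apart in mouse 1 at 11305 TPM against 7587, 6622 and 6885. For mt-Atp6 the values were 19890, 19002, 17750 and 20028 TPM in mice 1 to 4. Reads of the stretch that both genes share are uncertain, and its part in the value of mouse 1 was not tested.

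Some nuclear genes listed at high levels share nearly all of their sequence with mitochondrial genes. Whether their reads came from mitochondrial RNA was not tested. GENCODE M21 places 5 pseudogenes in a row on chromosome 1 (24612775 to 24616197, minus strand), which are copies of a stretch of the mitochondrial genome inserted into nuclear DNA. Gm28661 (24614885 to 24615565) is 681 bases long and identical to mt-Co2 over all of them, and its mean of 14992 TPM gave it rank 6 of all genes. Its values were 12113, 16742, 16118 and 14998 TPM in mice 1 to 4, while mt-Co2 was at 16335, 11026, 11240 and 14332. The mouse lowest for the copy was the highest for the gene. The sum of both was 28448, 27768, 27358 and 29329 TPM, and its coefficient of variation between mice (SD as a percentage of the mean) was 3.05%, against 13.7% for the copy and 19.3% for mt-Co2.

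Of 4 such pairs aligned, Gm28661 and Gm28437 had no mismatch to their gene and the other 2 had 1. The 4 stretches are given because a single base, in capitals, is all that separates these copies from their genes where they align. Gm29216 (10850 TPM on average) matched mt-Co1 at 482 of 483 aligned bases, and Gm28438 (23.3 TPM on average) matched mt-Nd3 at 344 of 345. The sequences are of the GENCODE M21 transcripts (GRCm38), 5′ to 3′.
mt-Co1, bases 1063 to 1096: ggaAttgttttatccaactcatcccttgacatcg
Gm29216, bases 10 to 43: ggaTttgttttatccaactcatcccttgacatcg
mt-Nd3, bases 1 to 33: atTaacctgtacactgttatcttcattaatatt
Gm28438, bases 1 to 33: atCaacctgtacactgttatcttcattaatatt
Only a read that covers such a base, or that runs past the aligned stretch, separates the members of a pair. Gm28437 is identical to mt-Co3 over 783 bases and was at 348 TPM against 17953. With the 5 copies added, the mitochondrial share was 20% ± 0.866. Gm20594, a gene of chromosome 6 annotated as protein-coding, had rank 18 at 4085 ± 231 TPM. Of its 31-base words 10% occur in the mitochondrial ribosomal RNA mt-Rnr2, which was not analysed here.

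Ribosomal protein genes formed the next large class: 79 genes held 5.11% ± 0.120 of the summed TPM. Rps29 (2477 ± 71.8 TPM) and Rps21 (2160 ± 179) were the highest among them. For several of these genes a processed pseudogene, an intron-less copy made from the mRNA, was listed at a higher level than the gene itself. Rpl27 was at 39.7 TPM and its copy Rpl27-ps3 at 779, Rpl12 at 19.0 and its copy Gm10275 at 429, and Rpl5 at 30 and its copy Gm15500 at 327. For Rps23 (279 TPM, copy Rps23-ps1 632), Rpl27a (168, copy Gm7536 625) and Rpl31 (422, copy Rpl31-ps8 605) the copy was also the higher of the pair. Ppia, the cyclophilin A gene often used as a reference in PCR, was at 1175 TPM beside 771 for its copy Gm10123, and Tpt1 at 892 beside 591 for Tpt1-ps3. Each of these copies shared nearly all of its 31-base words with the gene, from 99.8% for Gm10275 to 100% for Rpl27-ps3.

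Across the whole list, 759 members were pseudogenes, and 154 of them shared at least 50% of their 31-base words with a gene of the table. The 149 copies of nuclear genes summed to 0.835% of all TPM, and 34 of them had a higher mean than their gene. Copies of nuclear and mitochondrial genes at 200 TPM or more (with Gm28438 counted among them) numbered 18. In 12 of these the sum of copy and gene varied less between mice than either row alone. Adding rows can lower this variation without any shared reads, and unrelated rows were not summed for comparison. Whether the count reflects shared reads was thus not tested. Levels of single genes with such a copy are uncertain because of the shared words. Words were counted from the copy to the gene, so how much of each gene's own sequence sets it apart was not examined.

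Among nuclear genes outside these classes, Mbp was the highest at 12099, 12126, 12682 and 11836 TPM in mice 1 to 4, rank 8 of all genes. Fth1, the ferritin heavy chain that stores iron, was at 9749 ± 220 TPM and Apoe, the lipid carrier of astrocytes, at 3217 ± 295. Below the first 20 came Atp5b of the ATP synthase (2637 ± 81.7), the myelin gene Mobp (2453 ± 26.4), Gapdh (2208 ± 69.7), the astrocyte gene Sparcl1 (2199 ± 61.1), Snap25 (2116 ± 61.0) and brain creatine kinase Ckb (2090 ± 116). The 3 neurofilament genes Nefl, Nefm and Nefh together held 0.347% ± 0.0109 of the summed TPM. Nuclear genes of oxidative phosphorylation (83 genes) held 3.76% ± 0.0271.

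Genes that mark the cell types of the cord were present as its tissue label says. All 18 genes of mature oligodendrocytes were members, with a median of 333 TPM. Besides Mbp and Mobp, transferrin (Trf, 1238 ± 128), Apod (875 ± 25.2) and Mag (825 ± 36.5) were among the highest, and the lowest was Opalin (53.4 ± 3.75). The 12 genes of oligodendrocyte precursors had a median of 19.2 TPM: Bcas1 (493 ± 15.9), which newly formed oligodendrocytes carry, was far above the precursor genes Ptprz1 (43.7 ± 1.55), Pdgfra (13.8 ± 0.897) and Cspg4 (5 ± 0.279). In whole tissue the number of cells of a type and the amount of RNA per cell cannot be told apart.

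All 20 astrocyte genes were members, with a median of 168 TPM. The glycolytic enzyme Aldoc (1229 ± 49.9), Gfap (1175 ± 55.5), Ndrg2 (1093 ± 49.5) and glutamine synthetase Glul (1036 ± 47.5) were the highest, and the transcription factor Sox9 the lowest (11.4 ± 0.707). Gfap was at 1199, 1092, 1212 and 1195 TPM in mice 1 to 4, with mouse 2 alone low. The glutamate transporter Slc1a2 (322 ± 5.20) exceeded Slc1a3 (45.7 ± 1.4). Microglial genes were lower: the 16 listed had a median of 21.3 TPM, with Ctss (89.4 ± 3.96) and the complement genes C1qa (63.0 ± 3.52) and C1qb (62.1 ± 2.54) among the highest, Itgam the lowest (7.47 ± 0.318) and Cx3cr1 at 17.5, 18.1, 16.9 and 18.1 TPM. Trem2 stood at 8.25 ± 1.32, and a second row of the same symbol, which the annotation lacks, held the same values in every mouse, so its level is uncertain. Macrophages of the tissue borders left little signal. Of 7 of their genes only Pf4 reached 1 TPM (1.29 ± 0.881), while Cbr2, Cd163, F13a1, Mrc1, Lyve1 and Ms4a7 were between 0.349 and 0.807.

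Neuronal genes were abundant. The 16 listed for all neurons had a median of 531 TPM, led by Snap25, Nefm (1603 ± 64.0), Nefl (1212 ± 39.1) and the ubiquitin hydrolase Uchl1 (1057 ± 48.1), with the RNA-binding gene Elavl4 lowest at 48.2 ± 3.83. Among transmitter genes, those of inhibitory neurons were well represented, among them the glycine transporter Slc6a5 (129 ± 4.51), the vesicular transporter of both transmitters Slc32a1 (118 ± 6.27) and Gad1 (117 ± 9.04). The subunit Grin1 of NMDA receptors (138 ± 3.37) led the list for excitatory neurons, ahead of the vesicular glutamate transporter Slc17a6 (92.0 ± 3.55) and the dorsal horn factors Lmx1b (10.4 ± 1.5) and Tlx3 (5.56 ± 0.607), and Lhx1 was the lowest gene of inhibitory neurons (3.69 ± 0.478). The acetylcholine-synthesizing enzyme Chat was at 22.4, 25.2, 21.7 and 20.2 TPM in mice 1 to 4, and the vesicular acetylcholine transporter Slc18a3 at 28.6 ± 1.49. In the same list Ache (187 ± 7.48), Spp1 (143 ± 13.8), the filament gene Prph (102 ± 9.44) and the peptide gene Calca (93.3 ± 36.0) were the highest and the homeobox gene Lhx3 the lowest (2.07 ± 0.674). Other cells also express Ache and Spp1, so these 2 are not specific to motor neurons.

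Of the genes of dorsal horn and other interneurons, parvalbumin (Pvalb, 229 ± 6.41), somatostatin (Sst, 226 ± 12), calretinin (Calb2, 209 ± 12.8) and proenkephalin (Penk, 191 ± 26.2) were the highest of 16, and the neuromedin U receptor Nmur2 the lowest (2.68 ± 0.202). Rare neurons remained visible. The channel Pkd2l1 of the neurons that contact cerebrospinal fluid was at 8.39 ± 1.29 TPM, beside Gata2 (5.21 ± 2.63), Espn (3.57 ± 0.0989), Pkd1l2 (1.31 ± 0.226) and Gata3 (1.3 ± 0.503).

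Vascular genes were led by Ly6c1 (96.8 ± 13.1), Itm2a (67.9 ± 2.22), Slco1a4 (67.0 ± 7.44) and the glucose transporter Slc2a1 (66.2 ± 7.41), and Cdh5 was the lowest of 12 endothelial genes at 4.87 ± 0.435. Cldn5 was at 46.2, 41.0, 27.2 and 34.0 TPM in mice 1 to 4, whereas Pecam1 stayed between 10.5 and 12.4. In pericytes and smooth muscle Rgs5 (41.1 ± 2.45), Vtn (36.4 ± 0.498), Tagln (11.6 ± 1.05) and Pdgfrb (5.17 ± 0.219) were the highest, Myh11 was at 2.04 ± 0.287, and Cnn1 (0.771) and Des (0.582) fell below 1 TPM. The prostaglandin synthase Ptgds, made in meninges and oligodendrocytes, was at 1004 ± 134, while the other genes of meningeal fibroblasts were at 22.2 TPM (Mgp) or less, with Col1a2 at 10 ± 0.437, Dcn at 9.63 ± 1.35, Lum at 1.09 ± 0.0853 and Ogn (0.914), Foxc1 (0.834) and Slc47a1 (0.262) below 1. The ependymal regulator Foxj1 was at 21.2 ± 1.95 TPM, followed by Ccdc153 (17.4 ± 4.52), Rarres2 (16.7 ± 1.64) and Mia (12.2 ± 2.60), with Pifo at 1.16 ± 0.321 and Hydin below the minimum at 0.444.

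**Figure D2:**
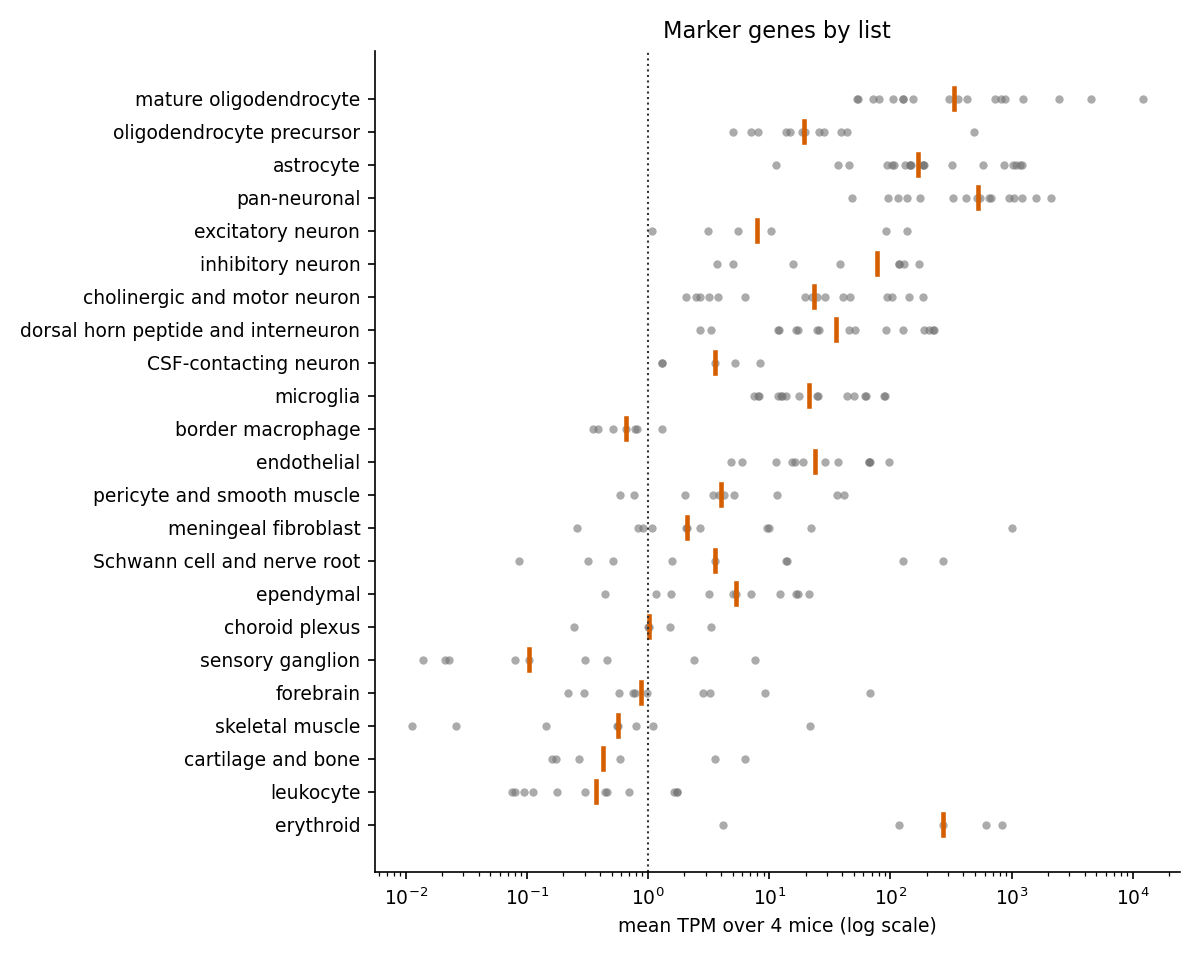
Each point is the mean TPM over the 4 control mice (log scale) of 1 marker gene, by list; the orange bar is the median of the list and the dotted line is 1 TPM. The lists of mature oligodendrocytes, astrocytes, all neurons and red blood cells have the highest medians, the lists of neuron classes are lower, and sensory ganglion, leukocyte, muscle and border macrophage genes lie mostly below 1 TPM.

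Genes of tissues next to the cord were examined too. Of 9 genes of dorsal root ganglion neurons, Pou4f1 (7.60 ± 0.725), which some cord neurons also express, and P2rx3 (2.41 ± 0.543) were members, while those below 1 TPM included the nociceptor channels Scn10a (0.0212) and Scn11a (0.0227), Trpv1 (0.105), Prdm12 (0.0806), Avil (0.305) and Mrgprd (0.0138). Of Schwann cell genes, Pmp2 (0.513), Prx (0.318) and Egr2 (0.0860) were below 1. Fxyd1 (270 ± 18.3), Pmp22 (128 ± 4.98), Cdh19 (14.1 ± 1.58) and Drp2 (13.8 ± 1.18) in the same list are also made by glia of the cord. Actg2 of visceral smooth muscle was at 5.78 TPM in mouse 2 and at 0.156 or less in the other 3. Skeletal muscle genes were at 1.11 (Acta1) or less, with Ckm, Myh1, Tnnt3, Tnnc2, Myh2 and Myh4 below 1, apart from the myosin light chain Mylpf (20.5, 17.3, 14.6 and 33.8 TPM). Cartilage and bone were represented by Acan (6.33 ± 0.427), which also coats neurons, and Col2a1 (3.54 ± 1.05), with Bglap2, Matn1, Ibsp and Bglap between 0.160 and 0.589. In the choroid plexus list Ttr was at 1.55, 7.89, 2.40 and 1.32 TPM, Kl at 1.53, Clic6 at 1.02 and Folr1 at 1 on average, and Kcne2 below at 0.244.

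Genes of red blood cells were higher than these. The 4 adult globin genes held 0.112, 0.249, 0.284 and 0.122% of the summed TPM in mice 1 to 4. Hbb-bs, the main beta globin, was at 478, 1068, 1252 and 558 TPM, and Alas2, the first enzyme of red cell heme synthesis, at 2.46, 5.02, 6.35 and 2.80. Mice 2 and 3 were high and mice 1 and 4 low for all 5 genes of the list. Genes of white cells were low, with Cd3d (1.72 ± 0.44), S100a9 (1.72 ± 1.83) and S100a8 (1.63 ± 2.09) as the members and 9 others, among them Cd4, Cd3e, Cd8a, Cd79a, Ms4a1, Retnlg, Nkg7 and Ly6d, between 0.0752 and 0.702. The neutrophil genes S100a8 (0.400, 1.19, 4.71 and 0.222 TPM) and S100a9 (1.09, 0.542, 4.45 and 0.803) were highest in mouse 3.

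The forebrain list served as a contrast. Among those below 1 TPM were Emx1 (0.219), Lhx2 (0.296), Tbr1 (0.982) and Drd1 (0.758). Ppp1r1b, the phosphatase inhibitor known from striatal neurons, was at 65.9, 65.3, 77.7 and 64.0 TPM in the cord, and Drd2 (9.27 ± 0.999), Neurod2 (3.22 ± 0.238) and Neurod6 (2.83 ± 0.324) were members too.

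Of 39 Hox genes 32 were members. The highest were Hoxb8 (171 ± 4.89), Hoxc8 (92.1 ± 3.36), Hoxa7 (74.7 ± 3.31) and Hoxb6 (58.8 ± 3.14), and the lowest member was Hoxd1 (1.81 ± 0.2). Summed over the 4 clusters, the levels by paralogue group were 3.06 ± 0.308 TPM in group 1, 16.9 ± 1.65 in group 2 and 59.7 ± 2.81 in group 3, lower in group 4 (36.9 ± 1.66), then 62.9 ± 1.15 in group 5, 110 ± 3.98 in group 6 and 115 ± 3.47 in group 7. They were highest in group 8 (304 ± 0.636) and declined to 113 ± 3.37 in group 9, 69.8 ± 6.11 in group 10, 11.5 ± 2.45 in group 11 and 1.35 ± 0.895 in group 13. Those below 1 TPM included Hoxb1 (0.45), Hoxd12 (0.0170), Hoxa13 (0.254), Hoxb13 (0.224), Hoxc13 (0.804) and Hoxd13 (0.0699). Hoxd4 had a second row that the annotation lacks, 13.5 TPM beside 5.56, and its level is uncertain.

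At the caudal end of this series mouse 3 was low. For groups 4 to 9 the 4 mice were at 742, 738, 743 and 739 TPM. For groups 11 to 13 they were at 18.3, 20.3, 9.22 and 17.0 TPM, with mouse 3 lowest. Hoxc12 was at 3.77, 4.52, 1.06 and 3.95 TPM and Hoxc13 at 1.03, 1.1, 0.0469 and 1.04. Of the 12 genes of groups 10 to 13, mouse 3 was the lowest for 11, and for the twelfth, Hoxd12, it was listed at 0 together with mouse 1. All 3 genes of group 10 reached 1 TPM, but only 4 of the 9 of groups 11 to 13 did. The order of mice for the others is uncertain. Over all 11823 genes at 5 TPM or more, a higher minimum than for these Hox genes, mouse 3 was the lowest for 27.1%.

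The choice between paralogues, gene copies that encode related proteins, was followed in 51 families with 201 genes, of which 25 were below 1 TPM. The most abundant member held a median of 62.5% of its family's TPM, over 90% in 9 families and under 50% in 13. It was the same in all 4 mice in 46 families, and the whole order of members was the same in 42. The SD of the top share between mice had a median of 0.777 percentage points.

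Calmodulin, the calcium sensor of most cells, shows how RNA can tell gene copies apart where the protein cannot. Calm2 and Calm3 encode the same 149 residues, while their coding sequences differ at 78 of 447 bases. The first 60 coding bases of each are given, from GENCODE M21 transcripts, with the positions at which they differ in capitals.
Calm2: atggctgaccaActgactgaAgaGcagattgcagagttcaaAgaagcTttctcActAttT
Calm3: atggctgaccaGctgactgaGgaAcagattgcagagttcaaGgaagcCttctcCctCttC
Calm3 (1501 ± 130 TPM, chromosome 7) and Calm2 (1493 ± 37.1, chromosome 17) were at equal levels within their spread, with a ratio of 0.935 to 1.06 over mice. Histone H3.3 is likewise 1 protein from 2 genes, and H3f3a (278 ± 6.84) exceeded H3f3b (144 ± 9.56) by 1.80 to 2.10 times. The alpha globin pair Hba-a2 (617) and Hba-a1 (272) and the beta globin pair Hbb-bs (839) and Hbb-bt (118) also encode identical proteins, and their ratios were steady (2.2 to 2.33 and 6.42 to 7.35) although their levels varied between mice.

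Families of the cytoskeleton and of protein upkeep were shared among several members. Tuba1a (1114 ± 58.2), Tuba1b (851 ± 28.3) and Tuba4a (364 ± 13.3) held most alpha tubulin, with Tuba8 (6.04) and Tuba1c (1.28) minor. Beta tubulin was led by Tubb4a (752 ± 40.8), the form of myelinating oligodendrocytes and neurons, ahead of Tubb2a (458), the neuronal Tubb3 (421), Tubb4b (335), Tubb5 (209), Tubb2b (143) and Tubb6 (9.08). Actg1 (673 ± 29.0) exceeded Actb (573 ± 39.2) in every mouse, and the muscle actins Acta2 (4.21), Actg2 (1.52), Acta1 (1.11) and Actc1 (0.342) were low. Map2 (362) and Map4 (352) changed places between mice, and Mapt, which encodes tau, was at 195 ± 2.82. Ank2 (294) exceeded Ank3 (169) and Ank1 (103), and the stathmins were ordered Stmn3 (872), Stmn1 (549), Stmn4 (411) and Stmn2 (330.5). Hspa8, the constant HSP70, held 98.2% ± 0.164 of its family, with Hspa2 at 11 TPM and Hspa1l at 4.81. The heat-inducible members of this family were low, with Hspa1a at 4.41 and Hspa1b at 2.02. For HSP90, Hsp90aa1 (1548 ± 102) exceeded Hsp90ab1 (900 ± 30.9).

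Among ubiquitin genes Ubb (1447) exceeded Rps27a (651), and translation factor 1A came from Eef1a1 (1131) and the neuronal Eef1a2 (681). Among 14-3-3 adaptors Ywhae (757), Ywhag (688) and Ywhah (664) were close, followed by Ywhaq (364), Ywhaz (318), Ywhab (212) and Sfn (4.56). Tmsb4x (1418) exceeded Tmsb10 (830), and Dynll2 (942 ± 38.8) exceeded Dynll1 (191 ± 14.9) 4.95 times. Ferritin was uneven too, with Fth1 at 96.5% ± 0.158 and the light chain Ftl1 at 357 ± 16.2 TPM. The metallothioneins Mt3 (1701 ± 89.9), Mt1 (1504 ± 143) and Mt2 (1029 ± 124) were all high and Mt4 was listed at 0. Sod1 (593 ± 9.26) exceeded the mitochondrial Sod2 (136) and the secreted Sod3 (4.95), and peroxiredoxins ran from Prdx5 (323), Prdx6 (280), Prdx2 (220) and Prdx1 (210) to Prdx3 (82.4) and Prdx4 (27.5).

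Energy metabolism had clear main forms. Ldhb (851 ± 14.8) held 90.9% ± 0.437 of lactate dehydrogenase over Ldha (85 ± 3.41), and Ldhc was listed at 0. Hk1 (117 ± 1.35) was nearly the sole hexokinase, with Hk2 (1.67) and Hk3 (1.1) low. Aldoa (1280) and Aldoc (1229) changed places between mice, with a ratio of 0.983 to 1.07. Eno2 (674) exceeded Eno1 (449), Eno3 (21) and Eno4 (5.47). Ckb stood beside mitochondrial Ckmt1 (351), with Ckm (0.796) and Ckmt2 (0.238) below 1 TPM. Slc25a4 (640) exceeded Slc25a5 (372) among adenine nucleotide carriers, with Slc25a31 at 0.0307, and Vdac1 (335) exceeded Vdac3 (217) and Vdac2 (180.4). Glucose transporters were Slc2a1 (66.2), Slc2a3 (50), Slc2a4 (5.16) and Slc2a2 (0.155). The c subunit of ATP synthase was listed as Atp5g3 (918), Atp5g1 (551) and Atp5g2 (55 ± 10.5), but the pseudogene Gm10175, all of whose 31-base words occur in Atp5g2, held 265 TPM, and with it Atp5g2 was at 320 and the share of Atp5g3 was 51.3% in place of 60.3%.

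Among pumps, the beta subunits of the sodium pump were Atp1b1 (1445), Atp1b2 (570) and Atp1b3 (196). Atp2a2 held 99.1% ± 0.0480 of the calcium pumps of the endoplasmic reticulum, with Atp2a3 at 2.45 TPM and Atp2a1 at 0.111. The plasma membrane pumps Atp2b2 (110 ± 0.971) and Atp2b1 (105 ± 4.79) could not be ranked, being within 0.997 to 1.09 times of each other, and Atp2b3 (61.9) and Atp2b4 (49.6 ± 14.3) were lower. A pseudogene close to Atp2b4, Gm45647, held 50 TPM, and with it added to Atp2b4 the share of Atp2b2 was 29.4% in place of 33.7%.

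Synaptic families mostly had a main form. The vesicle protein Vamp1 (894 ± 25.2) exceeded Vamp2 (244 ± 11) in every mouse by 3.49 to 4 times, with Vamp3 at 48.6. The calcium sensor Syt2 (404 ± 12.8) exceeded Syt1 (94.9 ± 2.24) by 4.04 to 4.42 times. The complexin Cplx1 (1005 ± 21.5) exceeded Cplx2 (102 ± 2.93), with Cplx3 (0.0771) and Cplx4 (0.0848) below 1. The glutamate transporter of vesicles was Slc17a6 at 95.6% ± 0.560, over Slc17a7 (3.13 ± 0.553) and Slc17a8 (1.08 ± 0.127). Gad1 (117) exceeded Gad2 (38.1), and Glra1, the adult alpha subunit of the glycine receptor, was at 127 ± 8.89 against Glra3 (6.69), Glra2 (5.86) and Glra4 (1.2). Camk2g (336 ± 21) was the main calcium/calmodulin kinase II, ahead of Camk2b (161), Camk2d (71.4) and Camk2a (54.1 ± 1.22). Sodium channels were Scn1a (90 ± 2.08) and Scn8a (76.0 ± 0.349), then Scn2a (23.3), Scn3a (7.49) and Scn9a (4.21), with Scn4a (0.0205) below 1. Snap25 was accompanied by Snap47 (295), Snap23 (24.4) and Snap29 (12.8). Synapsins were Syn1 (137), Syn2 (115) and Syn3 (16.7), and of the synucleins Sncb (504) exceeded Sncg (220.4).

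In glia and vessels, Gpm6b (368) exceeded Gpm6a (197). The myelin claudin Cldn11 (433 ± 23.3) held 77.9% ± 2.37 of the claudins, over Cldn10 (45.8), Cldn5, Cldn12 (25), Cldn14 (12) and Cldn1 (1.41), with Cldn3, Cldn15, Cldn19, Cldn2, Cldn23 and Cldn9 between 0.108 and 0.337. Car2 (443 ± 18.8), the carbonic anhydrase of oligodendrocytes, led 13 listed genes, ahead of Car14 (109), Car11 (102), Car10 (56.7), Car4 (21.4), Car7 (11.7) and Car5b (4.60). Car12 (3.52), Car13 (3.41) and Car8 (3.37) could not be ranked, and Car3 (2.95), Car9 (1.66) and Car1 (0.164) were the lowest. Fabp5 (303) exceeded Fabp7 (102) and Fabp3 (89.6), with Fabp4 at 0.232 and Fabp1 and Fabp2 listed at 0. App (947 ± 22.7) and Aplp1 (946 ± 26.3) could not be ranked, with Aplp2 at 512.

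**Figure D3:**
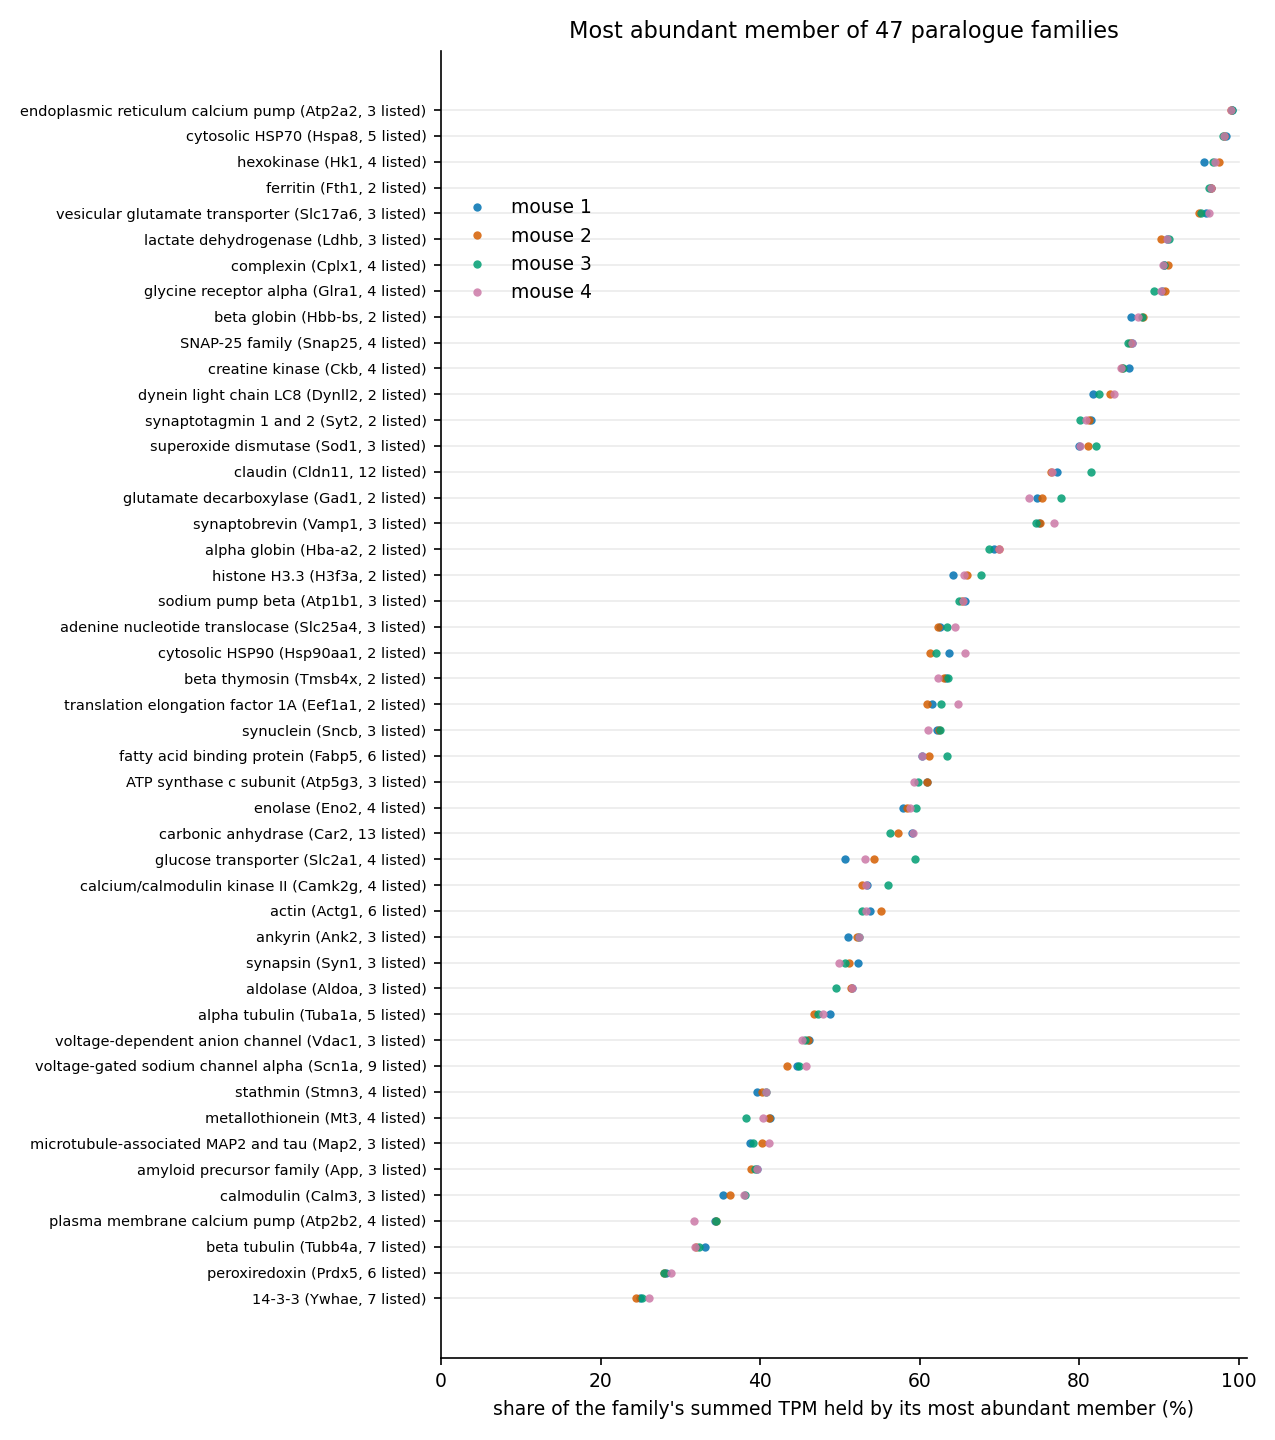
For each of 47 families, the share (%) of the family's summed TPM held by its most abundant member (named in brackets with the number of listed genes), 1 point per mouse. Shares run from 99.1% for Atp2a2 to 25.2% for Ywhae, and the 4 mice lie close together in most families.

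Spread between mice was small. The median coefficient of variation was 6.86% over all members and 5.62% over the 11823 genes at 5 TPM or more. It was 17.1% at 1 to 5 TPM, 7.72% at 5 to 20, 5% at 20 to 100, 3.46% at 100 to 1000 and 4.56% for the 79 genes at 1000 or more. From the technical variance in the authors' deposited tables, which cover the 8 libraries of each comparison with the controls and not the 4 controls alone, if it is on the natural log scale, the median error of estimating a gene was 14.7% at 1 to 5 TPM and 0.832% at 1000 or more. The steadiest genes were Pcp4 (412, 411, 412 and 409 TPM in mice 1 to 4, coefficient of variation 0.288%), Setdb1 (0.308%), Saraf (0.314%), Gabarapl1 (0.327%), Arf1 (0.386%), Pgbd5, Numa1, Gpx4, Rcc2 and Fam98b (0.420%). The low value of a single gene among so many need not hold beyond these mice, and the 10 genes differed in this. Pgbd5 varied by 15.8% within cHet and 5.08% within cKO, and Rcc2 by 11.2% and 10.3%. Saraf (1.96% and 1.51%) and Arf1 (1.67% and 2.54%) stayed low in both groups. The medians over genes at 5 TPM or more were 6.41% within cHet and 5.53% within cKO.

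**Figure D4:**
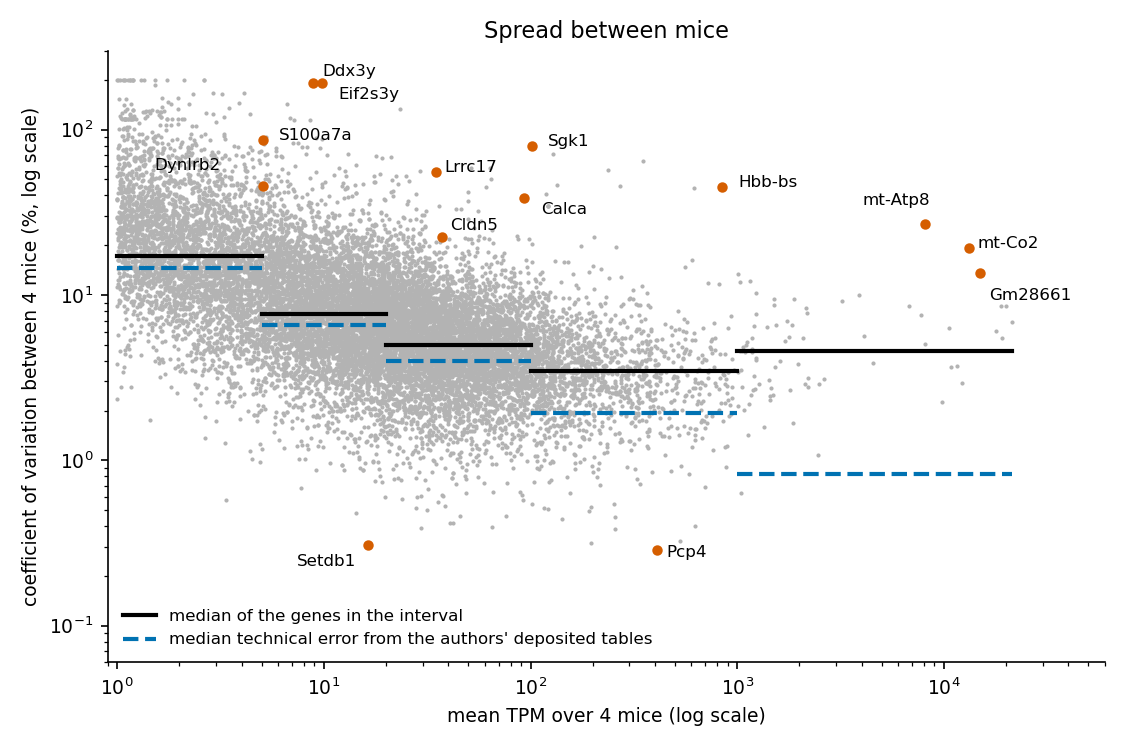
Coefficient of variation between the 4 control mice (%, log scale) against mean TPM (log scale), 1 point per gene. Black bars are medians within intervals of TPM and blue dashed bars the median technical error from the authors' deposited tables; Sgk1, the globin Hbb-bs, mt-Atp8 and mt-Co2 lie far above the median at their level.

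The 20 most variable named genes at 5 TPM or more lay within the first 70 by rank, of which 50 had only clone or predicted names and are not named. Of the 591 genes in the top 5%, 131 (22.2%) were pseudogenes or rows that GENCODE M21 lacks, against 3.26% of all genes at 5 TPM or more. Within the libraries of cHet 297 of the 591 (50.3%) were again in that group's top 5%, within cKO 304 (51.4%), and in all 3 groups 213. The ranking was not adjusted for level, and the median variation was 7.72% at 5 to 20 TPM against 3.46% at 100 to 1000. The part of level in this overlap was not tested. Ddx3y and Eif2s3y came first, followed among named genes by Rpl14-ps1 (8.37, 22.4 and 3.44 TPM in mice 1, 2 and 4, and near 0 in mouse 3), S100a7a (11.2, 4.94, 2.98 and 1.14), the antibody segment Ighj1 (listed at 0 in mouse 1 and 14.3 in mouse 4), the kinase Sgk1, the ribosomal retrogene Rps27rt, Dcstamp, Ptpn18 and Myoc (15.4, 35.3, 16.5 and 49.4). Lrrc17 was at 64.0 TPM in mouse 1 and between 23.1 and 26.8 in the others. The remaining ones were Pdcd5-ps, Ttc7, Ctf1, Ighj4, Gata2, Nanp, Cbx3-ps6, Arl4d and C1qtnf6, with coefficients of variation of 47.1 to 55.2%.

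Some of the spread was shared by whole groups of genes. Mouse 3 was the highest of the 4 for all 10 listed targets of the glucocorticoid receptor, while it was the highest for 24.9% of all genes at 5 TPM or more. Sgk1, a kinase induced by glucocorticoids, was at 32.1, 75.5, 217 and 79.8 TPM in mice 1 to 4. Tsc22d3, which encodes the glucocorticoid-induced leucine zipper, was at 132, 128, 165 and 136. Hif3a (2.73, 2.12, 6.54 and 2.93), Plin4 (0.963, 1.26, 3.05 and 1.43) and Per1 (11.4, 15.1, 23.4 and 15.2) showed the same order at the top, and Errfi1 (35.6 ± 4.4), Cdkn1a (23.3 ± 2.73), Fkbp5, Zbtb16 and Map3k6 smaller differences. Of 18 clock genes mouse 3 was the highest for 10 and mouse 4 for 6. Tef (162, 171, 261 and 217 TPM) and Dbp (48.0, 48.7, 72.5 and 69.6), whose RNA follows the time of day, were high in mice 3 and 4, whereas Nr1d2 was at 68 ± 4.12, Nr1d1 was between 38.4 and 41.3 and Arntl between 7.71 and 9.08. Of 14 members among the immediate early genes, which neurons switch on within minutes of activity, 9 were highest in mouse 3, with Fos at 13.8, 15.8, 21.3 and 14.7 TPM, Dusp1 at 13.9, 15.9, 21.1 and 17.6, Nr4a1 at 13.8, 15.0, 20.3 and 12.7, and Jun between 25.3 and 26.4. Fosb was the lowest member (1.51 ± 0.202), and Atf3 (0.814) and Egr2 (0.0860) were below 1 TPM.

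The opposite held for genes of the ependyma, the ciliated lining of the central canal. Of 10 members mouse 3 was the lowest for 8 and mouse 4 for 2. Dynlrb2, a dynein subunit of motile cilia, was at 6.4, 6.69, 1.69 and 5.48 TPM, and Rsph1 at 8.33, 8.63, 4.57 and 7.05. Foxj1 differed less (22.3, 23.2, 18.7 and 20.7). Calca was at 95.5, 107, 43.0 and 127 TPM, and Chat, also a motor neuron gene, was at 21.7 in mouse 3, within the range of the others. The 16 cholinergic and motor neuron genes summed to 726, 766, 636 and 787 TPM in mice 1 to 4, and mouse 3 was the lowest for 10 of them. Uts2, a peptide of motor neurons, had 42.0, 59.7, 24.5 and 72.6. Mouse 3 was also the lowest for 8 of 16 pan-neuronal genes and the highest for 12 of 20 astrocyte and 10 of 16 microglial genes, although the sums of these lists differed little between mice (highest over lowest 1.03, 1.06 and 1.05). Mouse 3 thus held the extreme of the caudal Hox, ependymal, cholinergic and motor neuron, glucocorticoid, globin and neutrophil values alike, and the part of any of these in the others was not tested.

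**Figure D5:**
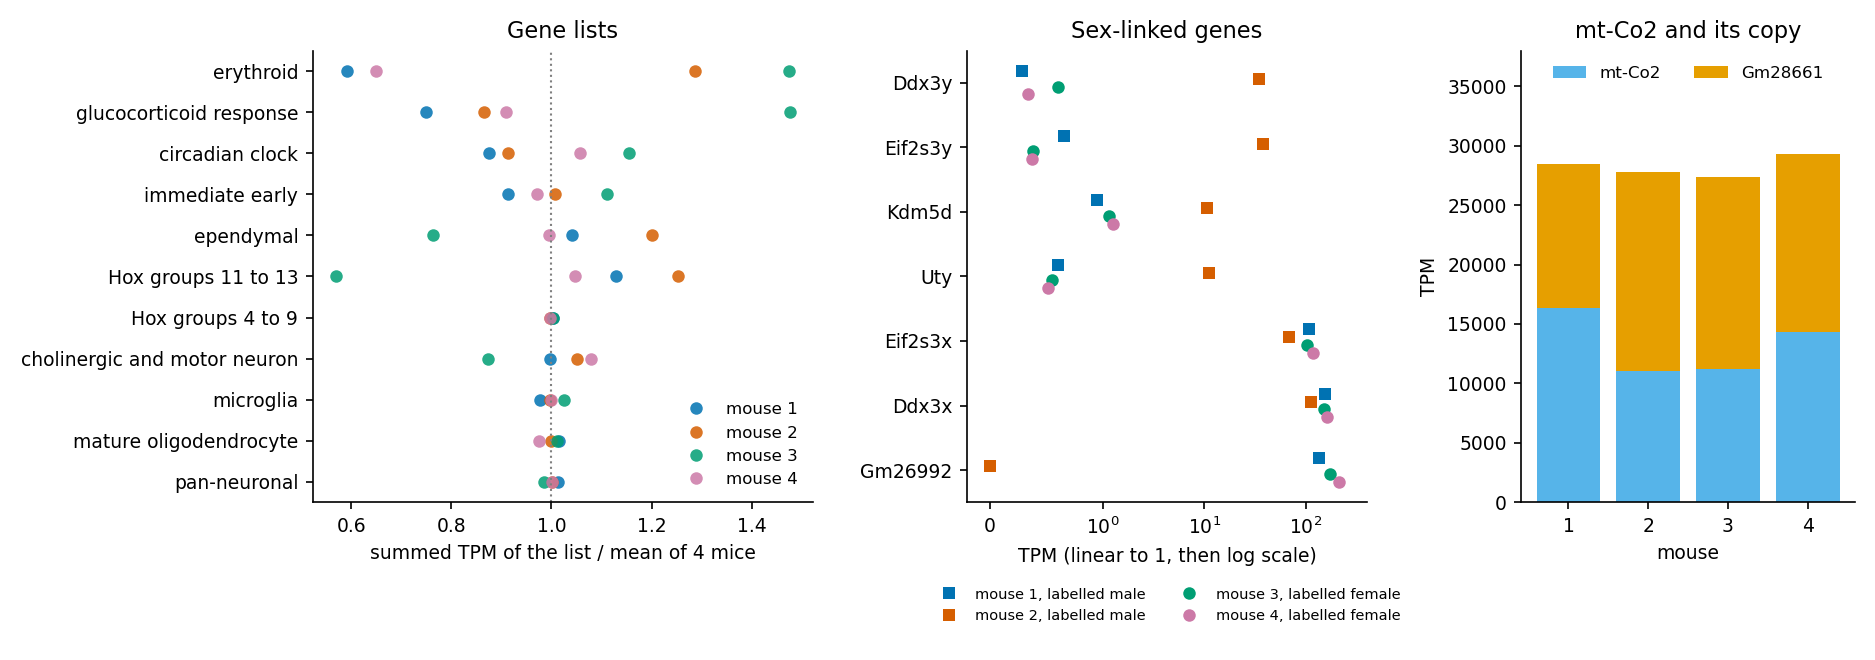
Left, summed TPM of gene lists in each control mouse, divided by the mean of the 4. Middle, TPM of sex-linked genes by mouse (axis linear to 1 and then logarithmic), in which mouse 1, labelled male, lies with the mice labelled female. Right, mt-Co2 and its nuclear copy Gm28661 stacked by mouse; mt-Co2 ran from 11026 to 16335 TPM and the sum from 27358 to 29329, and the mice with the higher mt-Co2 (1 and 4) also had the higher sums.

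Interferon response genes included Ifi27 (136 ± 10), Bst2 (12.8 ± 2.52) and Ifit3 (10.6 ± 1.95), with Usp18 lowest (1.86 ± 0.589) and Ifi44 (0.83) below 1 TPM. The chaperones Hspe1 (233 ± 14.3), Hsph1 (178 ± 8.89), Hspd1 (162 ± 5.78) and Hspa5 (144 ± 7.48) led the heat shock list. Among 15 genes often used as references, Gapdh, Ppia and Actb were among the highest and Gusb the lowest (16.9 ± 1.29).

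Males and females were compared by their labels with limma. Among the 4 controls none of 15329 genes was called at an adjusted p under 0.05 (0% called), and 777 had an unadjusted p under 0.05. A threshold of 0.05 passes close to that number of 15329 genes by chance alone. The smallest adjusted p was 0.162, for Gm16867 (1.13 and 1.2 TPM in mice 1 and 2, 9.92 and 8.72 in mice 3 and 4, limma adjusted over all genes). Next came Gm20689, Gm17387, Dcstamp and Gm48130 at 0.253 each, among them Dcstamp, a fusion receptor of bone-resorbing cells, at 3.57, 3.44, 9.93 and 11.9 TPM. All 5 were higher in both mice labelled female, but they were picked for the smallest p and none was called. In the same test the sex-linked genes were not called, with limma adjusted p of 0.975 for Ddx3y and 0.960 for Eif2s3y.

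Without mouse 1 the arm labelled male was mouse 2 alone, with no spread of its own and assumed to vary like the 2 mice labelled female. That fit called 1 of 15349 genes (0.00652%), Gm26992, which was listed at 0 in mouse 2. With all 12 mice, genotype group as a term and mouse 1 left out, 10 of 15260 genes were called (0.0655%): Kdm5d, Ddx3y, Eif2s3y, Uty, Penk and Srd5a2 higher in the libraries labelled male and Gm26992, Eif2s3x, Ddx3x and Kdm5c higher in those labelled female. With mouse 1 kept, the same fit called none. Mouse 1 was left out because its Ddx3y, Eif2s3y, Kdm5d, Uty, Eif2s3x and Gm26992 levels differed from its label. The calls of these genes without it are therefore not a separate result. Penk, which encodes the opioid peptide precursor proenkephalin and lies outside the sex chromosomes, was at 183, 230, 178 and 174 TPM in control mice 1 to 4. The 8 libraries of the other groups share no animal with the controls, but they were part of the fit above in which Penk was called. In these 8 Penk was between 240 and 259 TPM in the 4 labelled male and between 184 and 201 in the 4 labelled female. The difference was 0.41 ± 0.03 (SE) on the log2 scale (limma, adjusted p = 0.00433, 8 of 15251 genes called, 0.0525%). Control mouse 1 thus lay with the libraries labelled female for Penk too. Srd5a2, a steroid reductase that makes dihydrotestosterone, was at 1.04, 3.55, 0.954 and 1.61 TPM in the controls, and between 3.24 and 4.16 in the other libraries labelled male against 1.16 to 1.64 in those labelled female. Srd5a2 was not among the 8 genes called in the other groups alone.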

How the data were processed

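RNA sequencing of spinal cord was analysed from 4 control mice, with 8 further libraries of the series used for checks. Per the labels' protocols, Trizol was used on flash-frozen cords and an Illumina TruSeq kit for the libraries, with no strand setting stated. Per the submitters' processing notes the authors used kallisto 0.44.0 and sleuth 0.30.0 with GRCm38. The deposited signal values are the authors' normalized TPM per Ensembl gene. They sum to different totals, so they carry a scaling between libraries, and TPM keeps no read depth. A technical variance per gene was copied from the authors' deposited tables of comparisons (other columns of those tables were not used).

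From the deposited values the mean, SD and coefficient of variation over 4 mice were computed for the genes reaching a mean of 1 TPM. Lists use the row of a symbol that is in GENCODE M21, and 571 identifiers are not in it. Of these, 403 carry the symbol of a gene that is in it, and 164 of the 403 are members. Many of the 164 hold the same values as the annotated row, so the levels of such genes are uncertain. Copies were found by shared 31-base words between GENCODE M21 transcripts, and a pseudogene with at least 50% of its words in a gene was taken as its copy. Protein identity came from translated GENCODE M21 coding sequences. Sex was compared with limma 3.58.1 in R 4.3.3 (eBayes with trend, two-sided) on log2(TPM + 0.5), with Benjamini-Hochberg adjustment over all genes tested; fold changes on this scale understate low genes. An exact permutation test of 2 against 2 mice cannot go below p = 0.333, so none was used. Tested on simulated data for the comparison of 2 against 2 control mice with 15329 genes, 50 changed by each size, limma recovered 16% of changes of 0.5, 68% of 1, 88% of 2 and 88% of 4 (log2), with 5 false calls. The simulation changed mice 1 and 2 alike and so took both labels as right. It does not give the recovery for sex-linked genes, for which mouse 1 lay with the mice labelled female.

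The members, 32 gene lists, 51 paralogue families and the rule for naming genes were chosen with earlier results of these data known. The rule names the 20 most abundant genes, 5 genes on each side of 1 TPM, per list the 4 highest, the lowest at 1 TPM or more and those below it, every family member, the 20 most and 10 least variable genes at 5 TPM or more (clone and predicted names counted only), the sex genes and Tardbp; other genes named with values by mouse, Gm26992, Penk, Srd5a2, the nuclear copies and the Hox groups were chosen after their values were seen. Alternatives were other pseudocounts, filters, scalings and denominators and leaving out each mouse. Replicate numbers only name the animals. Some genes of the rule are not reported here, and 4 families are not plotted.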

Additional observations from a re-analysis of the deposited data

Results flagged for a closer look

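In each of 379 values (gene levels and list sums in the 4 control mice) the gap between the highest or lowest mouse and its nearest neighbour was divided by the whole range and set against Dixon's critical value for 4 samples. Chance alone passes about 1 in 20 groups, and 25 of the 379 passed here. The 379 include genes picked for high or low spread and the Y-linked genes, so that rate does not hold for all of them. Single values that passed can therefore be due to chance or to how they were picked. Mouse 2 was the highest in 8 of them and the lowest in 3, mouse 3 the highest in 5 and the lowest in 3, mouse 4 the highest in 2 and the lowest in 2, and mouse 1 the highest in 1 and the lowest in 1.

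Mouse 2 stood high for the Y-linked genes Eif2s3y (gap share 0.992), Ddx3y (0.991), Uty (0.992) and Kdm5d (0.968) and for their sum (0.998). It was the only control library high in Y-linked RNA, although mouse 1 carries the same label. Its Eif2s3y (37.7 TPM) lay below the 54.9 to 65.3 TPM of the libraries labelled male in the other groups. Penk (0.840), Ttr (0.836) and Actg2 (0.981) were also high in mouse 2, and Gfap (0.864), Eef1a1 (0.943) and Prdx5 (0.923) low.

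Mouse 3 stood high for the neutrophil gene S100a9 (0.860), for Ppp1r1b (0.860), Pdgfrb (0.846), Vdac3 (0.881) and Snap29 (0.92), and low for Sncg (0.899), Car2 (0.832) and Prdx3 (0.918). Mouse 4 was high for Hspa1l (0.905) and for the summed genes of neurons that contact cerebrospinal fluid (0.911), and low for Ache (0.856) and Tuba1c (0.868). Mouse 1 was high for Lrrc17 (0.910) and low for Myh11 (0.875).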

How the results depend on the processing

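No paired analysis was possible because the replicate numbers only name the animals. The depth behind each value is unknown. The count of genes called by labelled sex was 0 under other pseudocounts, filters and scalings and with all 12 mice, 6 with limma's eBayes without trend, and between 0 and 1 when each control mouse was left out, with the 1 call made without mouse 1; each of these fits has an arm of 1 library, assumed to vary like the other arm. It was 10 with all 12 mice but control mouse 1, and 8 in the mice of the other 2 groups, 2 settings chosen after seeing the data. The mitochondrial share of 17.3% became 20.02% with pseudogene copies added. The ribosomal protein share of 5.11% became 5.54% with copies added and 6.17% without mitochondrial genes in the denominator, which took the share of the 100 most abundant genes from 34.4% to 20.7%. Without a filter on low values the median coefficient of variation was 13.7% in place of 6.86%. The other 51 values of these summaries moved by less than their spread or, for counts, by less than 1.5 times. Without mouse 3 or mouse 4 the leading member changed in 2 families, calmodulin and the amyloid precursor family. Among families and single genes 5 values moved beyond their spread, 2 family shares with copies added and 3 genes under equal totals, and 426 did not.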
